A study of Homo sapiens with 4 samples.

Results

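The cyclin-dependent kinase inhibitors are the genes CDKN2A, CDKN2B, CDKN2C, CDKN2D, CDKN1A, CDKN1B, CDKN1C and CDKN3, and they were followed through every spot on the arrays that carries 1 of these symbols. The platform annotation named 7 such spots. The scanner files' own descriptions named 2 more, the only CDKN2C spot and a second CDKN2A spot described as isoform 2, which gave 9 spots for 8 genes out of 29640 spots that were not controls and 13014 named genes. RNA came from DLD-1 and HT-29, established human colorectal cancer cell lines: treated DLD-1 cells, untreated DLD-1 cells, treated HT-29 cells and untreated HT-29 cells. All 4 groups grew in RPMI1640 with fetal bovine serum. Treatment was 1 µM 5-aza-2'-deoxycytidine, a cytidine analogue that traps DNA methyltransferases and lowers DNA methylation over cell divisions, given for 96 h after 24 h of growth. Treated and untreated RNA of a line shared each oligonucleotide array, and a second array repeated the hybridisation with the Cy3 and Cy5 dyes exchanged, giving 4 arrays. The labels do not say whether any RNA came from separate cultures, so each line counts as 1 replicate. P-values set the mean of the 2 lines against a spread between lines that is shared over probes. They measure no spread between cultures. An SD over the 2 arrays of a line is taken as a technical spread.

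Cyclin-dependent kinases drive cells from G1 into S phase by phosphorylating the retinoblastoma protein, which releases E2F transcription factors. INK4 proteins, encoded by the CDKN2 genes, bind CDK4 and CDK6 and keep D-type cyclins from activating them, while CIP/KIP proteins, encoded by the CDKN1 genes, bind CDK2 complexes and also the cyclin D complexes. CDKN2A is a tumour suppressor with 2 promoters, 1 for the INK4 protein p16 and 1 for ARF, which binds MDM2. Its promoter CpG island is often methylated in colorectal cancer, which is why the gene is a common readout of demethylating drugs. CDKN1A encodes the CIP/KIP protein p21, which also binds the replication clamp PCNA.

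The promoter windows below show the CpG sites on which DNA methylation could act at the gene most tied to silencing, CDKN2A, and at CDKN1A for comparison. Each window runs from 250 bases before to 50 bases after a RefSeq transcription start on GRCh38.p14, in the direction of transcription, with every CG in capitals. The first CDKN2A window lies at chr9:21995275-21995574 on the minus strand, at the start of the ARF transcript, and the second at chr9:21974808-21975107 on the minus strand, at the start of the p16 transcript. The CDKN1A window lies at chr6:36678464-36678763 on the plus strand.
CDKN2A, ARF start: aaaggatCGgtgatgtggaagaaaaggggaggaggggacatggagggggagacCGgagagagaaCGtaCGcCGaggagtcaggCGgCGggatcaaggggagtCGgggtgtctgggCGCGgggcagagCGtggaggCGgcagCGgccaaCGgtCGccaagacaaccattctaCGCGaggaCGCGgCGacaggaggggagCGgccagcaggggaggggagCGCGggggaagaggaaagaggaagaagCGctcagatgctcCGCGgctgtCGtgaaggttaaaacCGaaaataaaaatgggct
CDKN2A, p16 start: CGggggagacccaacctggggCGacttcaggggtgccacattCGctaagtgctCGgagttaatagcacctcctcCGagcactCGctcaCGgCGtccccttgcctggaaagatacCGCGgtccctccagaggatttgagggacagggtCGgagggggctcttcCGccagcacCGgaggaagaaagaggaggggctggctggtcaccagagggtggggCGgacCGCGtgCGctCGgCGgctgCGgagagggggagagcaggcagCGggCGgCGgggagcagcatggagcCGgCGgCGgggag
CDKN1A: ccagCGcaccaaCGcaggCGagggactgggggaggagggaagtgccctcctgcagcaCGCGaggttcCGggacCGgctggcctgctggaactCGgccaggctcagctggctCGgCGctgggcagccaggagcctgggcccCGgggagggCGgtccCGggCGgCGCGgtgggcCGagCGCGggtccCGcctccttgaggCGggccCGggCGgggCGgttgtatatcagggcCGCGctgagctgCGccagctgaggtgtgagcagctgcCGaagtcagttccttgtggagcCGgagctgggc
The ARF window held 28 CG dinucleotides, the p16 window 26 and the CDKN1A window 29, against a median of 14 over 35116 RefSeq windows of the same length. These counts exceeded those of 73.8%, 69.9% and 75.8% of the windows. The GC box GGGCGG, searched on both strands, occurred 0 times in the ARF window, 2 times in the p16 window and 4 times in the CDKN1A window, and 45.0% of all windows held at least 1. Of the 8 genes, 7 matched the RefSeq table, with 10 windows in all; CDKN1C did not. Over those 10 windows the CG count ran from 8, at 1 of 3 CDKN2C starts, to 37 at another CDKN2C start. Methylation itself was not analysed here, and the files do not say which CDKN2A transcript either probe reads.

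For array 1 of each line the labels put treated RNA second and in Cy5, and file channel 2 was taken as treated. For array 2 the labels list treated RNA first and in Cy3. Read the same way, they make file channel 1 the treated one there. The file columns name no dye on any array, so the columns do not settle the order. Channel 2 was read as treated on all 4 arrays, a working choice, and the labels' order, which turns the sign of every array 2 ratio, stands beside it. Under the working reading the ratios of the 2 DLD-1 arrays correlated at r = −0.45, and those of the 2 HT-29 arrays at r = 0.00. Those of the 2 first arrays correlated at r = 0.51. Each r is across 18868 probes that are not independent replicates. The labels' order makes the DLD-1 correlation positive and leaves that of HT-29 near 0. The share of all probes with 1 sign on all 4 arrays was 7.84% under the working reading and 15.9% with the labels' order. Which reading is right was not tested. A channel was called above background if intensity minus local background was over 2 background SD, and 74.6% to 87.1% of spots passed in at least 1 channel. Of 10 epithelial marker genes, 9 in untreated HT-29 and 8 in untreated DLD-1 were above background on both arrays, but so were 4 and 7 of 7 markers of blood, stromal and endothelial cells, so the call by itself does not tell cell types apart. CDX1, an intestinal transcription factor, was not above background on either untreated HT-29 array.

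Signal was enough to measure 6 of the 9 spots on all 4 arrays, and it was not enough for CDKN2B, for the other CDKN2A spot or, on 1 DLD-1 array, for CDKN1B. No inhibitor rose or fell by the test over both lines, under either reading of the arrays. The isoform 2 probe of CDKN2A had the largest mean ratio of the family under the working reading, 1.44-fold, and was positive on 4 of 4 arrays, but it did not pass. CDKN1A and CDKN2C had negative means under both readings, at 0.78-fold and 0.85-fold under the working reading, and did not pass either. Ratios by array are shown in the plot of both channel readings, and the signals behind them in the plot of spot intensities.

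**Figure D1:**
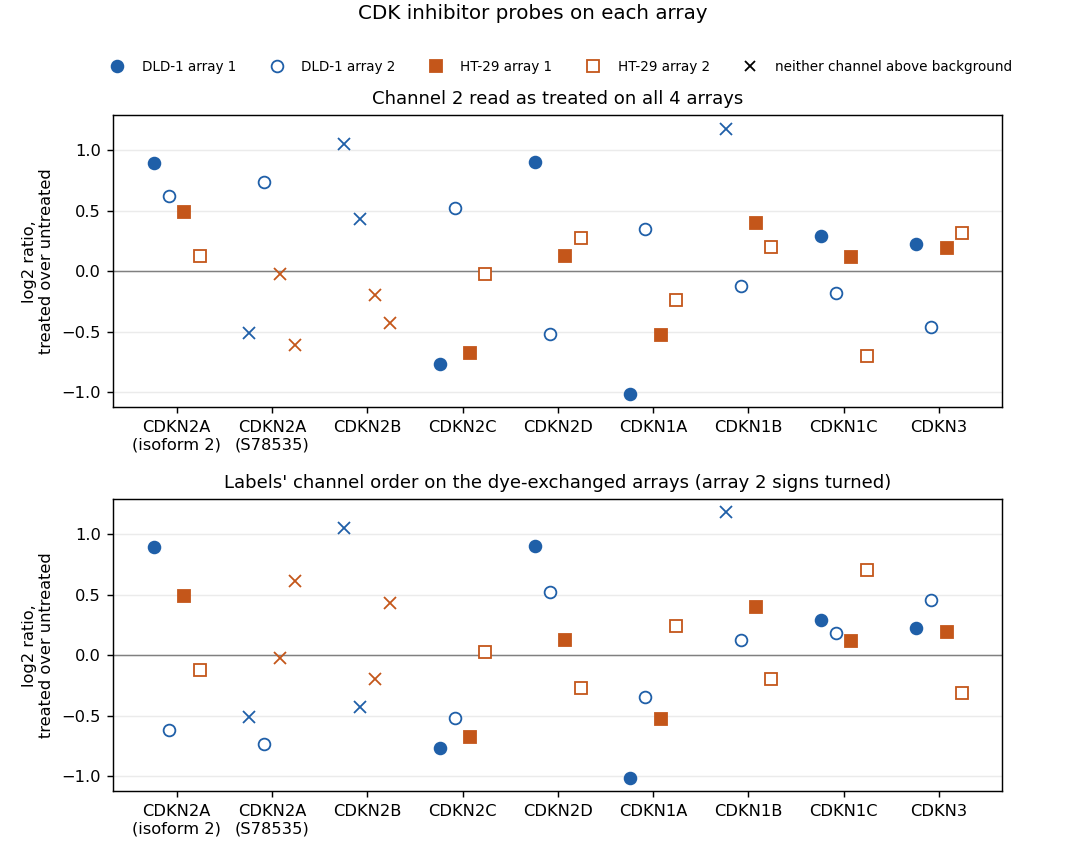
Log2 ratio of treated over untreated signal for the 9 CDK inhibitor probes on each array, with channel 2 read as treated (top) and with the labels' channel order (bottom), where only array 2 changes sign. Filled symbols are array 1 and open symbols array 2 of DLD-1 (circles) and HT-29 (squares); crosses mark spots with neither channel above background. The CDKN2A isoform 2 probe is the only measured one above 0 on all 4 arrays in the top panel, and CDKN1C the only one in the bottom panel.

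**Figure D2:**
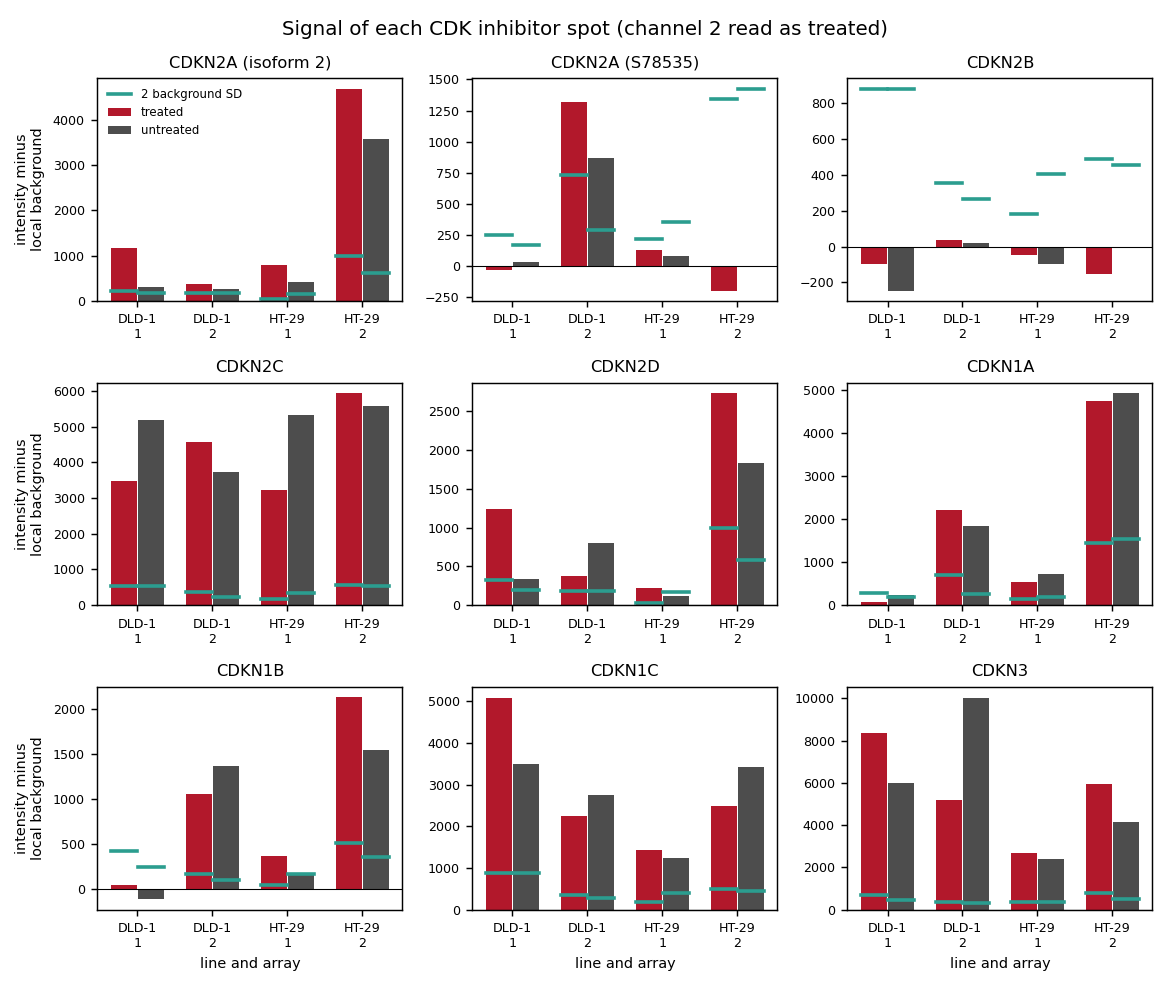
Intensity minus local background (arbitrary scanner units) of each CDK inhibitor spot on the 4 arrays, treated left of untreated, with channel 2 read as treated. Green lines mark 2 background SD; CDKN2B lies under them on all 4 arrays.

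Among the INK4 genes, CDKN2A had 2 probes that behaved differently. The isoform 2 probe had treated signals of 1163 and 382 on DLD-1 arrays 1 and 2, against untreated signals of 307 and 267. In HT-29 its treated signals were 790.1 and 4691 on arrays 1 and 2, against untreated signals of 408 and 3575. Treated exceeded untreated on every array under the working reading, and both channels were above background on all 4 arrays, so by this rule the probe had signal in both untreated lines. The untreated DLD-1 signals were dim: they exceeded those of 92.7% and 93.8% of the 96 negative control spots, below the 95th percentile of 508 and 279 on those arrays.

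On DLD-1 arrays 1 and 2 the normalised log2 ratios of this probe were 0.89 and 0.62 (mean 0.76 ± 0.19, SD over the 2 arrays). On HT-29 arrays 1 and 2 they were 0.49 and 0.12 (mean 0.30 ± 0.26). The limma mean over both lines was 0.53 (SE 0.221, 95% interval 0.10 to 0.96, unadjusted p = 0.0164, adjusted p = 0.773), at percentile 98.4 of all probe means. Across the alternatives tried the adjusted p ran from 0.0978 to 1.00. With the labels' order DLD-1 averaged 0.14 ± 1.07, HT-29 averaged 0.18 ± 0.43 and the mean over both was 0.16 (limma adjusted p = 0.868). The authors' deposited ratios, which use plain background subtraction, were higher, at 1.57 and 0.76 in DLD-1 and 0.88 and 0.22 in HT-29, which moved the DLD-1 mean to 1.17. The probe was thus higher in treated RNA on every array if channel 2 is treated, by less than the test over all probes could call. Of all probes, 4.53% were positive on all 4 arrays.

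The other CDKN2A probe, matched to accession S78535, was above background on DLD-1 array 2 alone. There its treated signal was 1322, against 871 untreated, under the working reading. The log2 ratio was 0.74, or −0.74 with the labels' order, so its direction depends on the channel order. On DLD-1 array 1 its treated and untreated signals were −29.5 and 31.0, and on HT-29 arrays 1 and 2 they were 133 and 79.4, and −197 and 1.31, all within 2 background SD. No fold is given for these 3 arrays, and the second probe therefore has no ratio in HT-29 to set beside that of the first. CDKN2B encodes p15, the INK4 neighbour of CDKN2A on chromosome 9, and had neither channel above background on any of the 4 arrays. Its treated signals ran from −150.5 to 38.8 and its untreated signals from −245 to 17.8. It was not detectable at this signal, with or without the drug.

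CDKN2C encodes p18, an INK4 inhibitor, and was bright throughout. Treated signals were 3477 and 4573 on DLD-1 arrays 1 and 2, against 5179 and 3731 untreated. In HT-29 they were 3238 and 5936, against 5330.3 and 5578 untreated. Its log2 ratios were −0.77 and 0.52 on the DLD-1 arrays, and −0.68 and −0.03 on the HT-29 arrays. The 2 first arrays thus gave lower treated signal by similar amounts, DLD-1 array 2 gave higher signal, and HT-29 array 2 was near 0. With the labels' order the ratio was negative on 3 of 4 arrays, and the mean over both lines was −0.49 (limma SE 0.245, adjusted p = 0.450), against −0.24 under the working reading (adjusted p = 0.963).

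CDKN2D, which encodes the INK4 inhibitor p19, had treated signals of 1243 and 372 in DLD-1, against 334 and 804 untreated. In HT-29 they were 218 and 2729, against 113 and 1829 untreated, and untreated signal was above background on 1 of the 2 HT-29 arrays. On HT-29 array 1 treated and untreated signals exceeded those of 94.8% and 82.3% of the negative control spots. Untreated signal on DLD-1 array 1 exceeded that of 92.7% of them. Under the working reading the 2 DLD-1 arrays differed in sign, with log2 ratios of 0.90 and −0.52, while both HT-29 ratios were small and positive, at 0.13 and 0.27. The labels' order made it the HT-29 arrays that differed in sign (mean −0.07 ± 0.28), and both DLD-1 ratios were positive (mean 0.71 ± 0.27). Its mean over both lines was 0.20 (limma adjusted p = 0.963), or 0.32 with the labels' order (adjusted p = 0.668). With the median ratio of each printed block set to 0, the line means were 0.19 in DLD-1 and −0.085 in HT-29.

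Of the CIP/KIP genes, CDKN1A encodes p21. Treated signals were 64.0 and 2201 on DLD-1 arrays 1 and 2, against 243 and 1842 untreated. The first of these treated signals was not above background. On DLD-1 array 1 treated and untreated signals exceeded those of only 72.9% and 87.5% of the negative control spots. The untreated 243 was below their 95th percentile of 508. In HT-29 treated signals were 541 and 4746, against 716 and 4910.2 untreated. The log2 ratios were −1.02 and 0.35 in DLD-1 (mean −0.33 ± 0.96) and −0.53 and −0.24 in HT-29 (−0.39 ± 0.21). Treated signal was thus lower on 3 of 4 arrays, and on 3 of 4 with the labels' order too. The mean over both lines was −0.36 (limma SE 0.221, 95% interval −0.79 to 0.07, adjusted p = 0.963), or −0.41 with the labels' order (adjusted p = 0.544). The mean was −0.02 without DLD-1 array 1 and −0.70 (limma adjusted p = 0.0514) without DLD-1 array 2.

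CDKN1B encodes p27, whose level is set largely by protein turnover. Neither channel was above background on DLD-1 array 1, and on array 2 the treated signal was 1057, against 1366 untreated. In HT-29 treated signals were 368 and 2127, against 151 and 1539 untreated, with the first untreated signal not above background. The HT-29 log2 ratios of 0.40 and 0.20 gave a mean of 0.30 ± 0.14, or 0.10 ± 0.42 with the labels' order, and there was no test over both lines. CDKN1C encodes p57 and is an imprinted gene. Its treated signals were 5083 and 2239.5 in DLD-1, against 3486 and 2756 untreated, and 1419 and 2479.6 in HT-29, against 1239 and 3417 untreated. Array 1 of each line gave a slightly positive ratio (0.29 and 0.11) and array 2 a negative one (−0.18 and −0.70). Turned to the labels' order these became 4 positive ratios of 4, where 8.65% of all probes were positive throughout and 15.9% had 1 sign. The mean was then 0.32 (limma adjusted p = 0.666), against −0.12 under the working reading (adjusted p = 0.971). The direction of CDKN1C therefore depends on the channel order.

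CDKN3 is named with the family but encodes KAP, a phosphatase that removes the activating phosphate from CDK2, and its transcript is highest in dividing cells. It was bright, with treated signals of 8353 and 5166 in DLD-1, against 5992 and 10031 untreated, and 2685 and 5929 in HT-29, against 2403 and 4141 untreated. The log2 ratios were 0.23 and −0.46 in DLD-1 and 0.19 and 0.31 in HT-29, so under the working reading the 2 DLD-1 arrays differed in sign and the HT-29 arrays did not. This was the other way round with the labels' order: DLD-1 averaged 0.34 ± 0.16 and HT-29 −0.06 ± 0.35, and the mean over both lines was 0.14 (limma adjusted p = 0.888). Under the working reading the mean over both lines was 0.07 (limma adjusted p = 0.982), and its 95% interval ran from −0.37 to 0.50.

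Taken as a set, 0 of the 6 probes measured on all 4 arrays passed limma's test on the 2 line means at an adjusted p under 0.05, where 0.175% of 18868 probes did, and 1, the CDKN2A isoform 2 probe, had an unadjusted p under 0.05, where 4.82% of all probes did. With the labels' order the counts were 0, where 0.715% of all probes passed, and 1, which was CDKN2C, where 10.9% did. The median of the 6 means was −0.03, against 0.01 over all probes, and 0.15 against 0.01 with the labels' order. None of 6 probes in DLD-1 and none of 7 in HT-29 was 2-fold changed in 1 direction on both arrays, where 0.123% and 0.128% of all probes were. With the labels' order both counts were also 0, where 0.382% and 0.309% of all probes passed. In the plot of probe means the CDKN2A isoform 2 probe lies at percentile 98.4 and CDKN1A at percentile 3.37 under the working reading, and CDKN2C at percentile 2.39 with the labels' order.

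**Figure D3:**
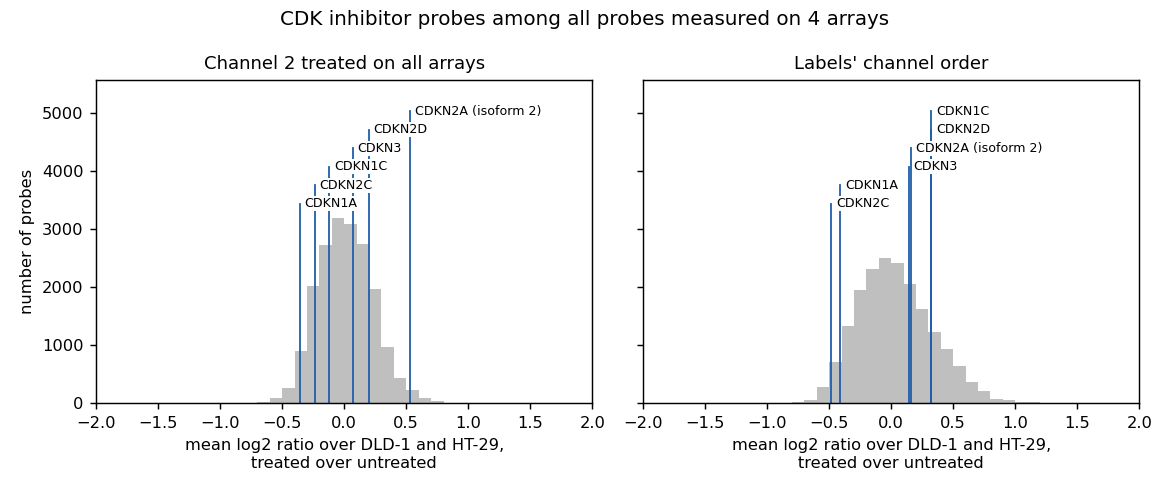
Number of probes by mean log2 ratio over DLD-1 and HT-29 (treated over untreated, bins of 0.1 log2 units) for the 18868 probes measured on 4 arrays, with channel 2 read as treated (left) and with the labels' order (right). Blue lines mark the 6 CDK inhibitor probes, whose means run from −0.36 to 0.53 on the left and from −0.49 to 0.32 on the right.

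A value that does not depend on the reading comes from the 2 first arrays alone, a comparison added after the values were seen, in which treated RNA is always in Cy5 and a dye effect cannot be told apart from the drug. The isoform 2 probe of CDKN2A then averaged 0.69 (limma adjusted p = 0.0985), CDKN2C −0.72 (adjusted p = 0.0822) and CDKN1A −0.77 (adjusted p = 0.0806). CDKN2D averaged 0.52 (adjusted p = 0.214), and CDKN1C and CDKN3 0.20 and 0.21. Again 0 of 6 probes passed, where 2.03% of probes did, and 3 had an unadjusted p under 0.05, where 24.6% of all probes did.

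Ratios on these arrays varied with the printed block in which a spot lies. Each array has 48 blocks, and in 37 of them the median ratio had opposite signs on the 2 DLD-1 arrays. Of the 24 ratios of the 6 measured probes, 20 had the sign of their block's median, a share near that of all measured ratios, 76.9%. CDKN2C, CDKN2D, CDKN1A and CDKN3 followed their block on 4 of 4 arrays, CDKN2A on 3 and CDKN1C on 1. For CDKN2C the block medians were −0.58 and 0.40 in DLD-1 and −0.42 and −0.16 in HT-29, close to the ratios of the spot itself. With block medians set to 0 the mean over both lines was −0.05 for CDKN2C and −0.21 for CDKN1A. The CDKN2A isoform 2 probe then had 0.44 and 0.93 in DLD-1 and 0.21 and −0.15 in HT-29, with line means of 0.69 and 0.03. The part of block position in these ratios was otherwise not tested. CDKN1C and CDKN2B lie in the same block, and their deposited background SDs were the same on each array.

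**Figure D4:**
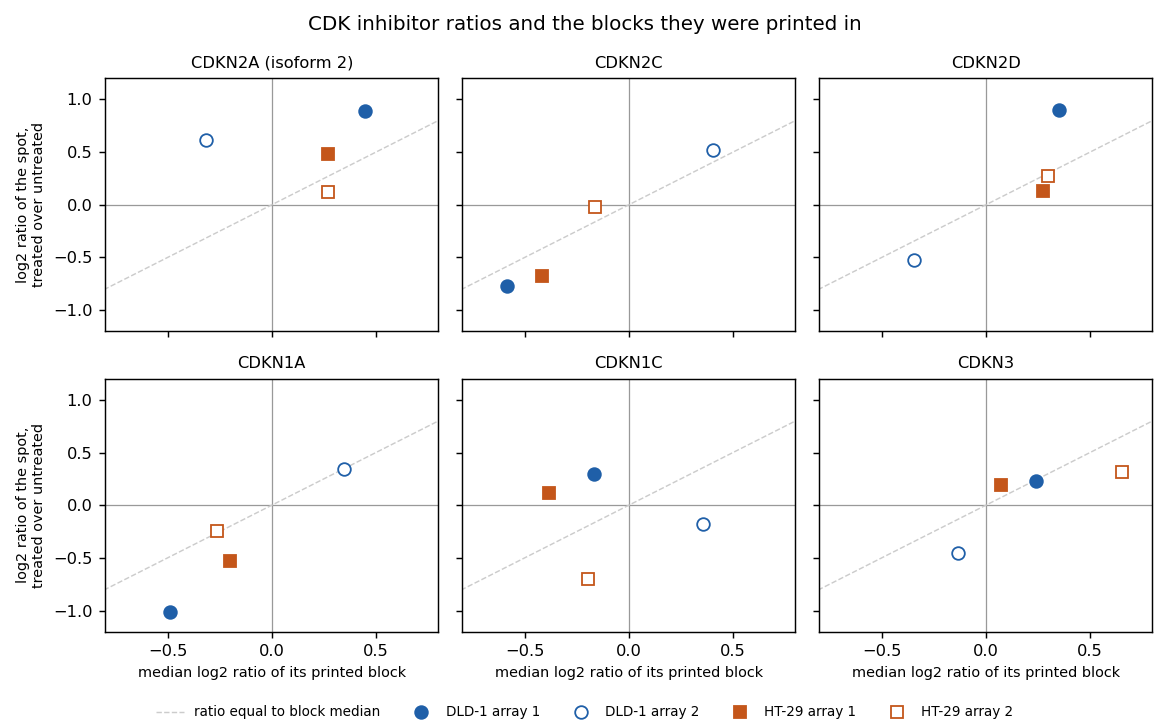
Log2 ratio (treated over untreated, channel 2 read as treated) of each of the 6 CDK inhibitor spots measured on all arrays against the median log2 ratio of all probes in its printed block, 1 point per array. Points on the dashed line have the ratio of their block; CDKN2C lies near it on every array, while the CDKN2A isoform 2 probe lies above it on 3 of 4 arrays.

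The signal of a probe averaged over both channels does not depend on the reading either, and it was compared between the lines on the log2 scale after quantile scaling. The CDKN2A isoform 2 probe was higher in HT-29, at 10.39 and 11.43 on its 2 arrays, than in DLD-1, at 9.99 and 9.06, a difference of 1.39. The arrays of 1 line were themselves 0.93 apart in DLD-1 and 1.04 apart in HT-29. CDKN2C was also higher in HT-29, by 0.38, at 12.60 and 12.21 on its 2 arrays, against 11.87 and 12.18 in DLD-1. Its array 2 values in the 2 lines were thus close. CDKN3 and CDKN1C were lower in HT-29, with differences of −0.74 and −0.68. In these 4 of 6 measured probes the arrays of the lines did not overlap, where 31.3% of all probes did not, and with 1 replicate per line there is no test. CDKN1A and CDKN2D overlapped between the lines. In the untreated channel alone, read as above, the CDKN2A isoform 2 probe, CDKN1C and CDKN3 did not overlap, 3 of 6, where 33.2% of all probes did not. HT-29 minus DLD-1 was then 1.61, −0.50 and −0.92 for these 3 probes.

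A list of 45 genes that act with the inhibitors or upstream of them put the family in context; it was drawn up with earlier results of these data known. Of these, 39 had a probe with 1 symbol and 32 were measured on all arrays. Limma called 1 of the 32, where 0.231% of 9101 genes were called, and 6 (2 positive, 4 negative) had an unadjusted p under 0.05, where 5.00% of all genes did. In the labels' order 10 (9 positive, 1 negative) had one, where 11.03% of all genes did. The list median was −0.01, against 0.01 over all genes, or 0.19 against 0.05 with the labels' order. The called gene was SKP2, the F-box protein that marks p27 for destruction, which fell under the working reading (mean log2 ratio −0.84, adjusted p = 0.0456). Its ratios were 0.47 and −0.75 in DLD-1 and −0.52 and −2.56 in HT-29, from 1 of its 2 probes, and treated signal was not above background on HT-29 array 2. Without that array the mean was −0.33 (adjusted p = 0.842), with the labels' order it was 0.81 (adjusted p = 0.0759), and on the 2 first arrays alone it was −0.02.

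Of the direct partners, CDK4 had no probe with 1 symbol and CDK6 was not measured on all arrays, so the kinases that INK4 proteins bind could not be followed. CCND1, a D-type cyclin, had a mean of 0.19 (limma adjusted p = 0.988). RB1, the retinoblastoma gene, had 2 probes that differed, with HT-29 array 1 ratios of 0.51 and 2.77, and a gene mean of 0.22 (adjusted p = 0.988). CCNE2, a cyclin of CDK2, had a mean of 0.46 that did not pass (adjusted p = 0.928), but it was called with the labels' order (0.87, adjusted p = 0.0479), the only list gene to be so, where 0.648% of genes were. On the 2 first arrays alone CCNE2, RB1 and CDK7, a CDK-activating kinase, were called with means of 1.32, 1.07 and 1.05 (limma adjusted p = 0.0247, 0.0476 and 0.0456), 3 of 36 genes, where 3.02% of all genes were.

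MDM2, which encodes a ubiquitin ligase bound by ARF, had a mean of 0.14 and did not pass (limma adjusted p = 0.989). MTAP, the metabolic gene next to CDKN2A, had −0.22 (adjusted p = 0.988), with a DLD-1 mean of −0.32 and an HT-29 mean of −0.11. E2F2, a transcription factor held by the retinoblastoma protein, was the only list gene with 1 sign on all 4 arrays under the working reading, where 7.89% of genes had 1 sign, and its ratios of −0.17, −0.14, −0.22 and −0.21 did not pass (adjusted p = 0.988). Turned to the labels' order, E2F2 was mixed, and 6 other list genes had 1 sign, where 15.9% of genes did: CCND1, CCNA2, RB1 and CKS2 were positive and CDK2 and MYC negative.

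**Figure D5:**
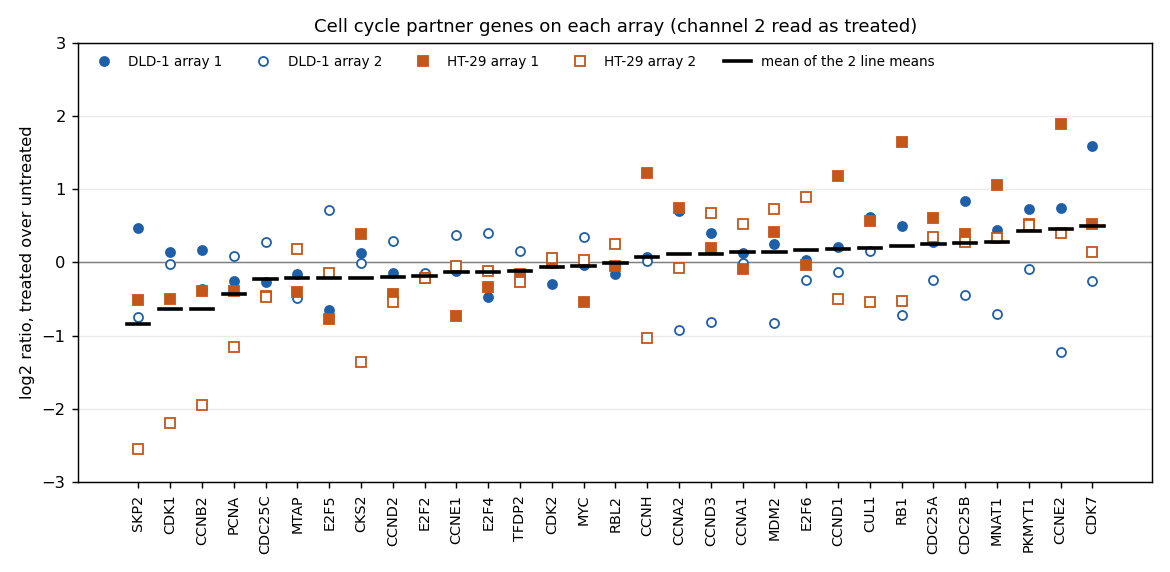
Log2 ratio (treated over untreated, channel 2 read as treated) of the measured cell cycle partner genes reported here on each array, ordered by the mean of the 2 line means (black bars); genes with several probes are averaged. SKP2, CDK1 and CCNB2 lie lowest, with HT-29 array 2 far below the other arrays. With the labels' order the means of these genes were positive, at 0.81, 0.46 and 0.52.

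Likeness of pattern was measured as the Euclidean distance between the log2 ratios on the 4 arrays, over 10289 other probes with a gene name. Nearest to the CDKN2A isoform 2 probe were CHKB, a choline kinase (distance 0.24), OMP, the olfactory marker protein (0.29), and WDR41 (0.33). CHKB had 1.02 and 0.73 in DLD-1 and 0.49 and −0.05 in HT-29. Nearest to CDKN1A were RANBP3 (0.07), ASH2L (0.09) and CANX (0.11), whose ratios were likewise negative on both first arrays and positive on DLD-1 array 2. The medians of the printed block of CDKN1A had the same signs, at −0.49 and 0.35 in DLD-1 and −0.20 and −0.26 in HT-29. The part of block position in this likeness was not tested.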

How the data were processed

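Values were measured on 4 two-colour oligonucleotide arrays. Per the labels' protocols, amino allyl aRNA was coupled to Cy3 or Cy5. The deposited scanner files give, per the file headers, each channel's spot intensity with its local background and background SD, and a log2 ratio (channel 1 over 2) that the authors shifted to a median of 0 on each array. The deposited series table holds these log2 values with the sign reversed (within 1e-06 at every spot). Scanner software is not given in the sources used here.

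Ratios were recomputed in R 4.3.3 with limma 3.58.1: normexp with an offset of 50, then 1 loess curve per array, with controls and spots marked bad given no weight. Spots marked bad on an array used were left out (49 on some array). A probe was tested if it had 1 or more channels above background on each array of the comparison. Names came from the platform table (14200 probes with 1 symbol, 447 with several) and, where it had none, from descriptions (1364 probes). RefSeq (GRCh38.p14) gave current symbols and promoters.

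The 2 arrays of a line were averaged. The 2 line means were tested against 0 (two-sided) by limma's lmFit and eBayes, and p-values were adjusted by Benjamini-Hochberg across all probes, or all genes, tested. An exact sign-flip test on 2 lines cannot go below p = 0.5, so the test rests on the variance limma shares between probes. In the 4-array probe fits under both readings the inhibitor probes all had the same SE. On the 2 first arrays alone the SE differed between probes, with 0.211 for CDKN3 and 0.241 for CDKN2D. Intervals use the SE of the fit under the working reading. Line levels used loess and Aquantile scaling. All inhibitor probes were reported. Of the partner list, called genes, the single gene with 1 sign on all arrays and context genes were named, with 1 list gene counted but not reported here, and CCNE2, CDK7, CDK1 and CCNB2 were named after their values were seen. Members and lists were chosen with earlier results of these data known. Alternatives changed the channel order, block centring, normalisation, background, filter, value source and arrays used.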

Additional observations from a re-analysis of the deposited data

How the results depend on the processing

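No alternative called any CDK inhibitor probe over both lines. With block medians set to 0, median centring, no background correction, plain subtraction, no filter, both channels above background, or the authors' deposited ratios, 0 partner genes were called, against 1 under the main setting and 3 on the 2 first arrays alone. Leaving out 1 array gave 0 to 2 partner genes. The 2 without DLD-1 array 2 were CCNE2 and CDK7, of 32 list genes tested, where 4.51% of 19339 probes were called. That share is over probes, not genes. The inhibitors changed 2-fold in DLD-1 ranged from 0 to 1 when 1 array was left out. The 1 was CDKN1A on array 1, where its treated signal was not above background. With 1 DLD-1 array left the rule asks for a 2-fold change on that array alone. The share of all probes passing this looser rule was not counted. The median of the inhibitor means was 0.21 on the 2 first arrays alone, against 0.04 over all probes, and the means ran from −0.77 to 0.69. The mean of CDKN1C turned to 0.32 with the labels' channel order and to 0.20 on the 2 first arrays, and ran from −0.32 to 0.085 when 1 array was left out. CDKN3 turned to −0.14 with block medians set to 0, −0.034 with median centring and −0.036 with the deposited ratios, and ran from −0.10 to 0.24 when 1 array was left out. Leaving out 1 array gave CDKN2C means between −0.56 and 0.083 and CDKN2D means between −0.16 and 0.55, each turned by the loss of DLD-1 array 1. The causes were not tested. Over all probes, 27 were called up and 6 down, against 126 and 9 with the labels' order, 4 and 0 with block medians set to 0, 1 and 0 with plain subtraction or without HT-29 array 2, and 631 and 242 without DLD-1 array 2. At 3 background SD in place of 2, 5 inhibitor spots were measured on all arrays, against 6. Each ratio compares treated with untreated RNA within an array. A further block by replicate number was not fitted, since the labels number no replicates. Signal over background limits CDKN2B, CDKN1B and the second CDKN2A probe, and 4 arrays of 2 lines limit every value.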
